A study of Mus musculus with 9 samples.

Results

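The chemokine receptor genes Cx3cr1, Ccr1, Ccr2, Cxcr4 and Cxcr2 were followed in microglia sorted from the visual cortex of adolescent mice. The genes were taken by symbol from a table of raw read counts, in which all 5 were among 45664 symbols, and 3 of the 5 had enough reads to be tested. The table held 9 libraries, each from 1 male C57BL/6 mouse. The 5 saline mice had been injected under the skin with saline, and the 4 ethanol mice with ethanol at 1.8 g per kg in a 20% v/v solution, given as a pair of injections 2 h apart for 3.6 g per kg a day, from postnatal day 4 to day 9. No genotype, transgene or later treatment was recorded, so both groups shared the strain, the early injections and the sort for live CD11b-positive, CD45-low cells. At collection, saline 1 to 5 were aged 36, 30, 35, 29 and 30 days, and ethanol 1 to 4 were aged 35, 35, 30 and 30 days. The mice came from 3 litters, and the labels do not tie a mouse to a litter. Litter was therefore not modelled, and the tests treat the 9 mice as independent.

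Chemokine receptors are receptors with several membrane-spanning helices that couple to inhibitory G proteins and steer cells along gradients of small secreted proteins. Cx3cr1 binds fractalkine (Cx3cl1), which neurons carry on their surface and shed. In the brain it is known chiefly as a receptor of microglia. Ccr1 binds ligands such as Ccl3 and Ccl5. Ccr2 binds Ccl2 and is the receptor by which inflammatory monocytes leave the marrow. Cxcr4 binds Cxcl12 and holds blood-forming cells in the marrow, and Cxcr2 binds Cxcl1 and related ligands and recruits neutrophils.

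The promoters of 3 of the genes are shown because their transcripts stood at the top, near the top and near the bottom of the receptor family in these cells. Each runs from 250 bases before the annotated start to 50 bases after it, in RefSeq on GRCm38.p6, and capitals mark CG dinucleotides. All 5 genes had a promoter in that table.
Cx3cr1 (chr9:120068247-120068546, minus strand): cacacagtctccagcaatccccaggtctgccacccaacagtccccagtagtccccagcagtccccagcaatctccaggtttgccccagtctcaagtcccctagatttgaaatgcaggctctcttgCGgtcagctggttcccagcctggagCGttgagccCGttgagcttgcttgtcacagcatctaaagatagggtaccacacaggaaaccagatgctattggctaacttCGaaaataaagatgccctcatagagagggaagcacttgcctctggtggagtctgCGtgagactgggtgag
Ccr1 (chr9:123968643-123968942, minus strand): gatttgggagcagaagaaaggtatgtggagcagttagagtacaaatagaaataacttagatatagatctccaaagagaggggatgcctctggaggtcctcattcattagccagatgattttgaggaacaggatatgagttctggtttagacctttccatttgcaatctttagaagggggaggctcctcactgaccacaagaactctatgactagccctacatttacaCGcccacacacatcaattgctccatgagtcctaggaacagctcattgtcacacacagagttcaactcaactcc
Cxcr4 (chr1:128592250-128592549, minus strand): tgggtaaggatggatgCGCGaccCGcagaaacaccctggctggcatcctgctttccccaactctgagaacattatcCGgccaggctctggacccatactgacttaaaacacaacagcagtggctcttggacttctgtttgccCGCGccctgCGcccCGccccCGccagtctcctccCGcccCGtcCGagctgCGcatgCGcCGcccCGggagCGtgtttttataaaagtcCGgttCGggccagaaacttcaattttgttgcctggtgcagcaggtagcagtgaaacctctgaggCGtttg
The Cx3cr1 window held 5 CG dinucleotides, the Ccr1 window 1 and the Cxcr4 window 20, against a median of 7 over 32851 mouse promoters of the same length. The windows of Ccr2 and Cxcr2 held 1 and 2. The level of the transcript did not follow this count, since the most CG-rich window belonged to a gene with almost no reads. The letters GAGGAA, the core bound by the myeloid factor PU.1, were searched on both strands and occurred 1 time in the Ccr1 window, 2 times in that of Cxcr2 and in none of the other 3, and 28.3% of all promoters held them. The letters TATAAA, also on both strands, occurred in the Cxcr4 window alone among the 5, as 2 overlapping matches on opposite strands, and in 13.6% of all promoters. These matches are descriptions of the windows.

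Library totals ranged from 12816198 to 28859244 counts, and 13067 genes had enough counts to be tested. The sorted cells carried microglial transcripts throughout: summed over 10 markers of microglia, levels were between 53929 and 62528 CPM (read counts scaled to library size) in every library. Saline 1 had the fewest astrocyte and neuronal transcripts, with 3.76 and 2.24 CPM summed over 8 and 9 markers, against at least 62.4 and 13.3 CPM in the other libraries. Ethanol 2 differed from the other ethanol libraries by a chi-square per degree of freedom of 61.3 to 84.1 over genes, where those differed among themselves by 9.27 to 14.8. Both libraries stood apart from the rest, and values without them are given where they matter. RNA integrity numbers were 9 to 9.9, lowest in saline 2. The column names end in a suffix whose meaning the labels do not give. Ethanol 1 and 2 share it with saline 3 and 4, ethanol 3 and 4 share another with saline 2 and 5, and saline 1 has its own.

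Cx3cr1 dominated the family. Over the 9 libraries it averaged 7596 CPM, rank 7 of all symbols, and took 0.685% to 1.00% of all reads of a library. Of the summed CPM of 25 chemokine receptor genes, Cx3cr1 made up 87.4% to 90.1% in each library. Ccr1 and Ccr2 held small parts of that sum, with a median of 0.877% for Ccr1 and 0.0633% for Ccr2. Per length, which allows levels of different genes to be compared, Cx3cr1 stood at 1686 CPM per kb of exon (range 1514 to 2188). On that scale it was at rank 21 of the symbols with an exon length. Its lowest library was far above the highest of Ccr1 (47.9 CPM per kb).

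**Figure D1:**
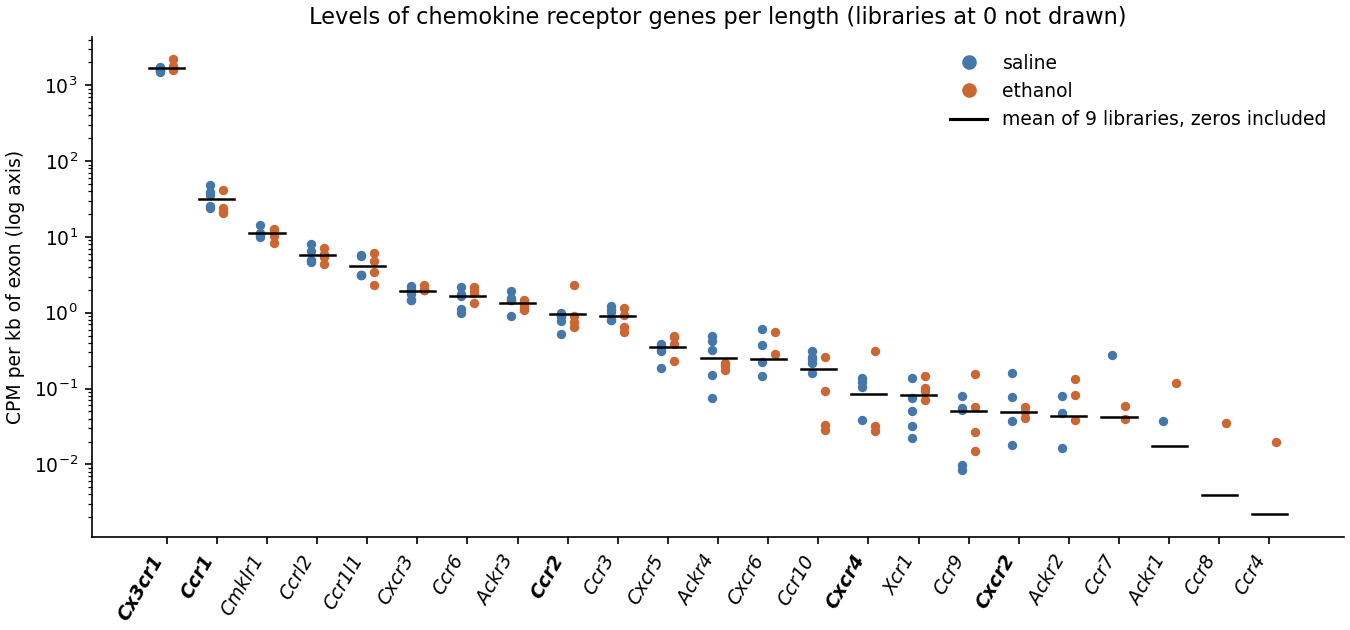
Levels of 23 chemokine receptor genes with at least 1 count, on a log axis of CPM per kb of exon, with 1 point per library (blue saline, orange ethanol) and a bar at the mean. Cx3cr1 stands alone at 1686 CPM per kb, Ccr1 is at 31.2, and Cxcr4 and Cxcr2 have means below 0.1.

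Ccr1 was at 31.2 CPM per kb (20.9 to 47.9), and its range did not overlap that of the chemerin receptor gene Cmklr1 (11.2 ± 1.77, SD, n = 9), the next below it. Ccr2 stood at 0.971 ± 0.534 CPM per kb, in a run of genes whose ranges overlapped. It was below the scavenging receptor gene Ackr3 (1.36 ± 0.309) in 7 of 9 libraries and above the eotaxin receptor gene Ccr3 (0.914 ± 0.229) in 3 of 9. Cxcr4 (0.0854 CPM per kb) and Cxcr2 (0.0486 CPM per kb) lay in the lowest part, where neighbouring genes could not be separated at this depth. The Cxcr2 paralogue Cxcr1 had no count in any library.

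The gene positions are those of GRCm38, with gene models of GENCODE M21. Ccr1 and Ccr2 lie on chromosome 9 among other receptor genes of the family, which include Cxcr6, Xcr1, Ccr1l1 and Ccr3. Ccr1 spanned 123962124 to 123968692 on the minus strand, with 2 exonic blocks, and Ccr2 124101950 to 124113557 on the plus strand, with 3. Ccr1l1 lies 8550 bases from Ccr1 and stood at 4.17 CPM per kb, against 31.2 for Ccr1. Cx3cr1 spanned 119901616 to 120069879 on the same chromosome, with 4 exonic blocks. The RefSeq promoter window shown above (120068247 to 120068546) lies inside this model, so the window and the model use different starts. The antisense gene model Gm33858 overlaps Cx3cr1 exon to exon. The use of strand in counting is not stated in the labels, so reads of the pair cannot be told apart. Cxcr4 (128588199 to 128592293) and Cxcr2 (74153989 to 74161246) are on chromosome 1. Of 6758 windows of 50 bases in the Ccr2 transcripts, 110 (1.63%) also occur in other transcripts of the family, so some of its reads cannot be assigned by sequence. The other 4 genes shared no such window with the family.

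Cx3cr1 did not pass the test between ethanol and saline mice, but its mean was higher in the ethanol group. It was at 7869, 6821, 6871, 6911 and 7275 CPM in saline 1 to 5, and at 7589, 9855, 8117 and 7056 CPM in ethanol 1 to 4. The groups overlapped: ethanol 2 and ethanol 3 were above every saline library, while ethanol 1 and ethanol 4 lay within the saline range. The means were 7149 ± 441 CPM (SD, n = 5) and 8154 ± 1214 CPM (SD, n = 4). The log2 fold change was 0.19 ± 0.09 (SE), with a 95% interval from -0.02 to 0.39, which corresponds to 0.99-fold to 1.31-fold, and edgeR's quasi-likelihood test gave an adjusted p of 0.963. Across the transcriptome 0% of the 13067 genes were called at an adjusted p under 0.05 and 2.95% had an unadjusted p under 0.05. All 3 tested receptors had groups that overlapped, as did all but 1.29% of genes. Without ethanol 2, the library with the highest value, the log2 fold change was 0.08, and without saline 1 and ethanol 2 together it was 0.12. It was 0.34 among the 4 libraries with the suffix of ethanol 1 and 2, and 0.10 among the 4 with that of ethanol 3 and 4. In the first set saline 4 was aged 29 days and ethanol 1 and 2 were aged 35 days, so treatment and age are mixed in the value of 0.34. The summed microglial markers moved with Cx3cr1: ethanol 2 (62528 CPM), saline 1 (62071 CPM), ethanol 3 (61587 CPM) and ethanol 1 (58183 CPM) were highest in both, and the other 5 libraries were at 53929 to 56889 CPM. The part of this in the Cx3cr1 difference was not tested.

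**Figure D2:**
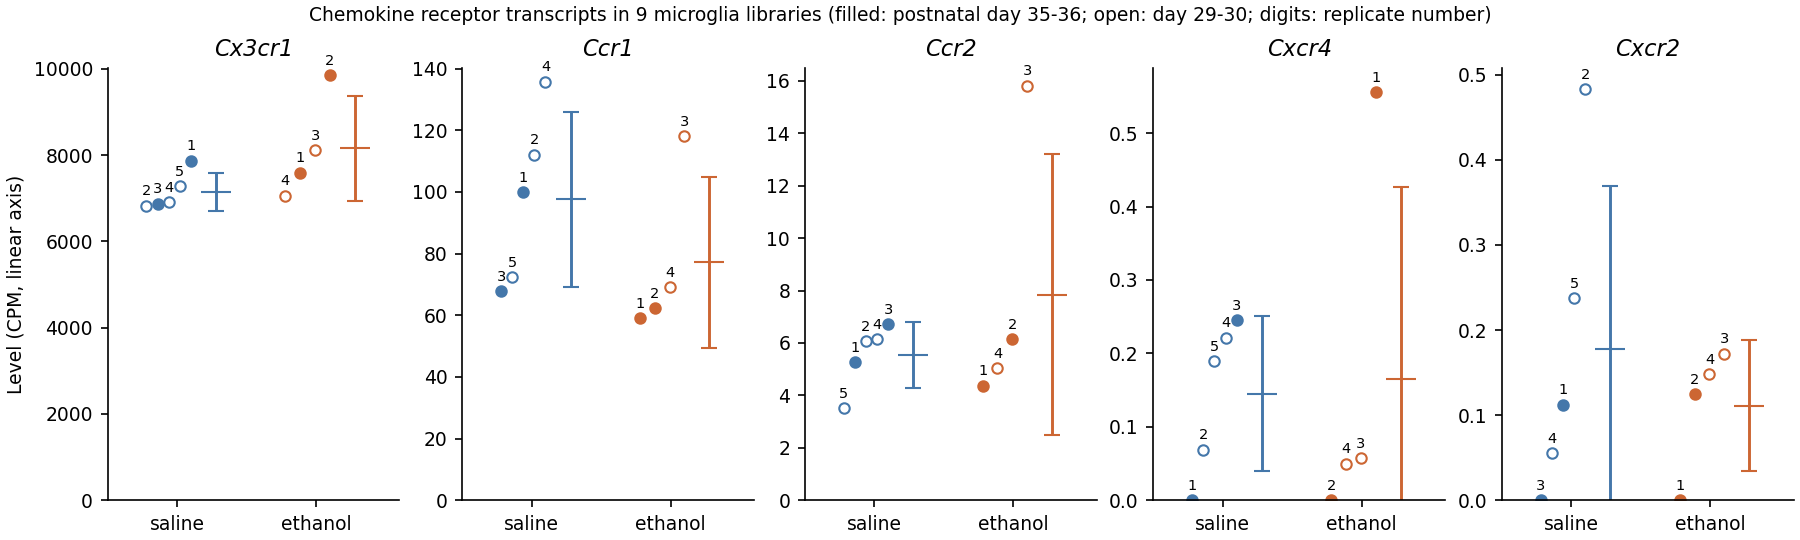
Level of each receptor gene in each library, in CPM on linear axes that differ between panels, with the group mean and SD beside the points (bars that reach below 0 end at the axis). The saline and ethanol points overlap in all 5 panels, and ethanol 3 lies alone at 15.8 CPM for Ccr2.

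The spread of Cx3cr1 was set by ethanol 2. The coefficient of variation over the 9 libraries was 12.7%, where the 16 other tested genes within 2-fold of its level had a median of 8.68% and 100% of them were lower. Without ethanol 2 it was 6.74%, near their median of 6.63% in the same 8 libraries. Reads numbered 95579 to 237689 per library, so counting error was small (9815 to 9894 CPM in ethanol 2, which covers counting error only).

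Ccr1 had a lower mean in ethanol mice and likewise did not pass. It was at 99.9, 112, 67.9, 136 and 72.3 CPM in saline 1 to 5 and at 59.1, 62.2, 118 and 69.1 CPM in ethanol 1 to 4. Both groups held high and low libraries: saline 1, 2 and 4 and ethanol 3 were at 99.9 CPM or more, and the other 5 libraries at 72.3 CPM or less. The means were 97.6 ± 28.3 CPM (SD, n = 5) and 77.1 ± 27.7 CPM (SD, n = 4). The log2 fold change was -0.34 ± 0.25 (SE), with a 95% interval from -0.90 to 0.22, and an adjusted p of 0.963 in edgeR's test. It moved to -0.62 without ethanol 3 and to -0.19 without saline 4. It was -0.23 without ethanol 1 and -0.22 with limma-voom and sample weights. Among the 4 libraries with the suffix of ethanol 1 and 2 it was -0.75. In that set saline 4 (136 CPM) was aged 29 days, and saline 3 (67.9 CPM) was aged 35 days like ethanol 1 and 2. Treatment and age are therefore mixed in the value of -0.75. Among the 4 libraries with the suffix of ethanol 3 and 4 the log2 fold change was 0.02, so no lower mean with ethanol was seen there. The summed markers of border macrophages, the macrophages of the meninges and vessels, moved with Ccr1 in most libraries. Their sum over 7 genes was 39.3 to 41.0 CPM in ethanol 1, 2 and 4, where Ccr1 was at 69.1 CPM or less. The sum was 92.0 CPM in ethanol 3 and 82.0 CPM in saline 4, where Ccr1 was highest. In saline 1, 2 and 3 the sum was 67.7, 66.3 and 48.4 CPM. Saline 5 went the other way, with a sum of 69.9 CPM and Ccr1 at 72.3 CPM. Most of the sum was the gene Mrc1, with 37.1 of 39.3 CPM in ethanol 2 and 75.0 of 82.0 CPM in saline 4. The part of these cells in the Ccr1 values was not tested.

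The spread of Ccr1 between mice was large for a gene of its level. Its coefficient of variation over the 9 libraries was 32.0%, higher than that of 99.4% of the 3416 other tested genes within 2-fold of its mean CPM, for which the median was 10.6%. Reads of Ccr1 numbered 744 to 3250 per library, and the counting interval of the lowest library (54.9 to 63.5 CPM in ethanol 1) did not overlap that of the highest (130 to 141 CPM in saline 4), both for counting error only. Leaving out any 1 library, the coefficient of variation stayed between 28.6% and 34.4%.

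Ccr2 was high in a single library. It was at 5.27, 6.07, 6.73, 6.14 and 3.51 CPM in saline 1 to 5 and at 4.37, 6.14, 15.8 and 5.04 CPM in ethanol 1 to 4. Apart from ethanol 3, the ethanol libraries lay within the saline range. The 276 reads of Ccr2 in ethanol 3 had a counting interval of 244 to 311 reads. Every other library had an upper bound of at most 7.95 CPM, that of saline 3. The means were 5.54 ± 1.25 CPM (SD, n = 5) and 7.84 ± 5.37 CPM (SD, n = 4). The log2 fold change was 0.50 ± 0.37 (SE), with a 95% interval from -0.30 to 1.31, and an adjusted p of 0.963 in edgeR's test. It was -0.09 without ethanol 3, -0.28 among the 4 libraries with the suffix of ethanol 1 and 2, and 1.10 among the 4 with that of ethanol 3 and 4. Treatment and age are mixed in the value of -0.28, as for Ccr1 in the same libraries. Over the 9 libraries the coefficient of variation of Ccr2 was 55.0%, against a median of 20.9% over 2216 other tested genes of like level. Without ethanol 3 it was 19.9%, below their median of 22.9%.

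Markers of monocytes, which are known for Ccr2, were low in ethanol 3 as in the other libraries. Summed over 9 monocyte markers, the libraries were at 2.51 to 4.08 CPM in saline and 2.38 to 3.04 CPM in ethanol mice, with ethanol 3 at 3.04 CPM. Of these markers Ly6c2 had 1 read, in saline 3, and 7 of the 9 stayed under 1 CPM in every library. The sum over border macrophage markers was highest in ethanol 3 (92.0 CPM), most of it from the mannose receptor gene Mrc1 (89.1 CPM). In ethanol 3, 6 of the 7 border macrophage markers had at least 1 count. The sort was set to keep CD45-low cells, and how far it left out cells high in CD45 was not tested here. The part of monocytes or border macrophages in the Ccr2 value was not tested. In bulk libraries fewer cells of a type and less RNA per cell cannot be told apart.

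**Figure D3:**
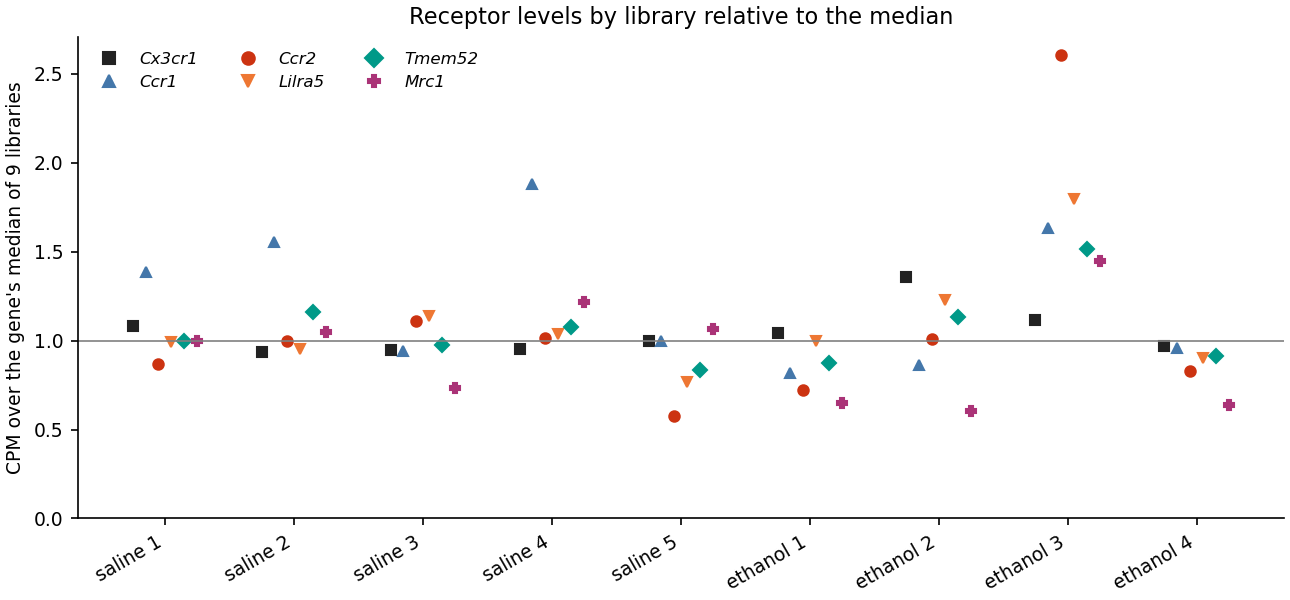
Level of each gene in each library divided by its median over the 9 libraries, on a linear axis, for Cx3cr1, Ccr1 and Ccr2, for Lilra5 and Tmem52, whose patterns were most like that of Ccr2, and for the border macrophage marker Mrc1. Ccr2 reaches 2.61 times its median in ethanol 3, where Ccr1 and Mrc1 are also above theirs, and Cx3cr1 reaches 1.35 in ethanol 2. Lilra5 and Tmem52 are above theirs in ethanol 3 too, but they were picked for their likeness to Ccr2 in these libraries.

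Cxcr4 and Cxcr2 were at the limit of detection and were not tested across the transcriptome, since they failed the count filter. Cxcr4 had 0, 2, 5, 4 and 4 reads in saline 1 to 5 and 7, 0, 1 and 1 in ethanol 1 to 4, or 24 in all. Cxcr2 had 2, 14, 0, 1 and 5 reads in the saline libraries and 0, 3, 3 and 3 in the ethanol libraries, or 31 in all. Pooled over each group, Cxcr4 was at 0.141 CPM in saline (95% Poisson interval 0.0789 to 0.233) and 0.121 CPM in ethanol mice (0.0553 to 0.230). Cxcr2 was at 0.207 CPM (0.130 to 0.313) and 0.121 CPM (0.0553 to 0.230). A count of 0 allowed up to 0.124 CPM of Cxcr4 in ethanol 2 and up to 0.238 CPM of Cxcr2 in ethanol 1, at 3 counts of the library. The upper ends of the 95% Poisson intervals used for the pooled counts were higher there, at 0.153 and 0.293 CPM. These intervals and limits cover counting error only.

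The group means of both genes differed by less than their spread. For the mean CPM, exact permutation tests (two-sided) gave p = 0.889 for Cxcr4 (0.145 ± 0.106 CPM in saline, n = 5, and 0.166 ± 0.261 CPM in ethanol mice, n = 4) and p = 0.667 for Cxcr2 (0.177 ± 0.192 and 0.111 ± 0.0766 CPM). Both had an adjusted p of 0.889 over the 2 tests, where the smallest p the design allows is 0.0159. Neutrophils carry Cxcr2 at high levels. The sum over 10 of their markers was at most 0.295 CPM, and S100a8, S100a9, Retnlg, Lcn2 and Stfa2l1 were at 0 in every library. Saline 2, with 14 reads of Cxcr2, had counts for 4 of the 10 markers (0.241 CPM). Saline 3, with 0 reads of Cxcr2, had counts for 3 of them (0.295 CPM). The part of neutrophils in the Cxcr2 reads was not tested. Lymphocyte markers, 10 genes of cells that carry Cxcr4, summed to 0.336 to 0.711 CPM in saline and 0.415 to 1.24 CPM in ethanol mice, with 5 of the 10, Cd3e, Cd3g, Nkg7 and Gzma among them, at 0 throughout.

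The rest of the receptor family also showed no call. Of 20 other chemokine receptor genes, 19 had at least 1 count and 11 were tested. Among these 11, 0 were called, 5 had a log2 fold change above 0 and 6 below 0, with a median of -0.02. Of all genes tested 49.8% were above 0 and 50.2% below 0, with a median of -0.00068, so the split was near that of the transcriptome. The decoy receptor gene Ackr3 had the smallest p of the list. It ranged from 2.77 to 5.94 CPM in saline and from 3.33 to 4.47 CPM in ethanol mice, with a log2 fold change of -0.26 ± 0.23 (SE, edgeR adjusted p = 0.963), which was -0.14 without saline 1 and -0.39 without saline 4.

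Ligands of the 5 receptors were tested for 10 of 16 genes, of which 0 were called, with 5 above 0 and 5 below 0 and a median of 0.0024 on the log2 scale. Without ethanol 2, a setting added after seeing the data for these lists, that median was -0.31, with 4 above 0 and 6 below 0. Fractalkine itself, Cx3cl1, had 17, 29, 21, 51 and 68 reads in saline 1 to 5 and 18, 58, 13 and 36 reads in ethanol 1 to 4. It is known as a neuronal gene, and its means were 1.81 CPM with saline and 1.59 CPM with ethanol, with overlapping groups. The Ccr1 ligand gene Ccl9, the most abundant, ranged from 180 to 243 CPM in saline and from 224 to 237 CPM in ethanol mice, with a log2 fold change of 0.08 (95% interval -0.11 to 0.27), which was 0.02 without saline 5 and 0.13 without saline 1. The Cxcr4 ligand gene Cxcl12 had the smallest p. It was at 0.561, 1.28, 1.47, 0.166 and 0.996 CPM in saline 1 to 5 and 2.62, 0.663, 2.01 and 1.63 CPM in ethanol 1 to 4, so the groups overlapped. The log2 fold change was 0.91 ± 0.55 (SE, edgeR adjusted p = 0.963). The Cxcr2 ligand genes Cxcl1, Cxcl3 and Cxcl5 had no count in any library.

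Downstream of the receptors, 22 of 24 genes of G protein signalling and desensitisation were tested and 0 were called. In this list 7 were above 0 and 15 below 0, and the median of the log2 fold changes was -0.03. The split turned without ethanol 2, to 15 above and 7 below with a median of 0.02, and was 13 above and 9 below without saline 1 and ethanol 2 together. Gnai2, the inhibitory G protein subunit and the most abundant gene of the list, ranged from 819 to 1050 CPM with saline and from 876 to 1015 CPM with ethanol, with a log2 fold change of -0.0071 (95% interval -0.19 to 0.17). Arrb2, the arrestin that ends receptor signalling, had the smallest p. It was at 254 to 314 CPM in saline mice, and at 267, 153, 242 and 287 CPM in ethanol 1 to 4, so the low value was that of ethanol 2. Its log2 fold change was -0.26 ± 0.16 (SE, edgeR adjusted p = 0.963), and -0.10 without ethanol 2.

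**Figure D4:**
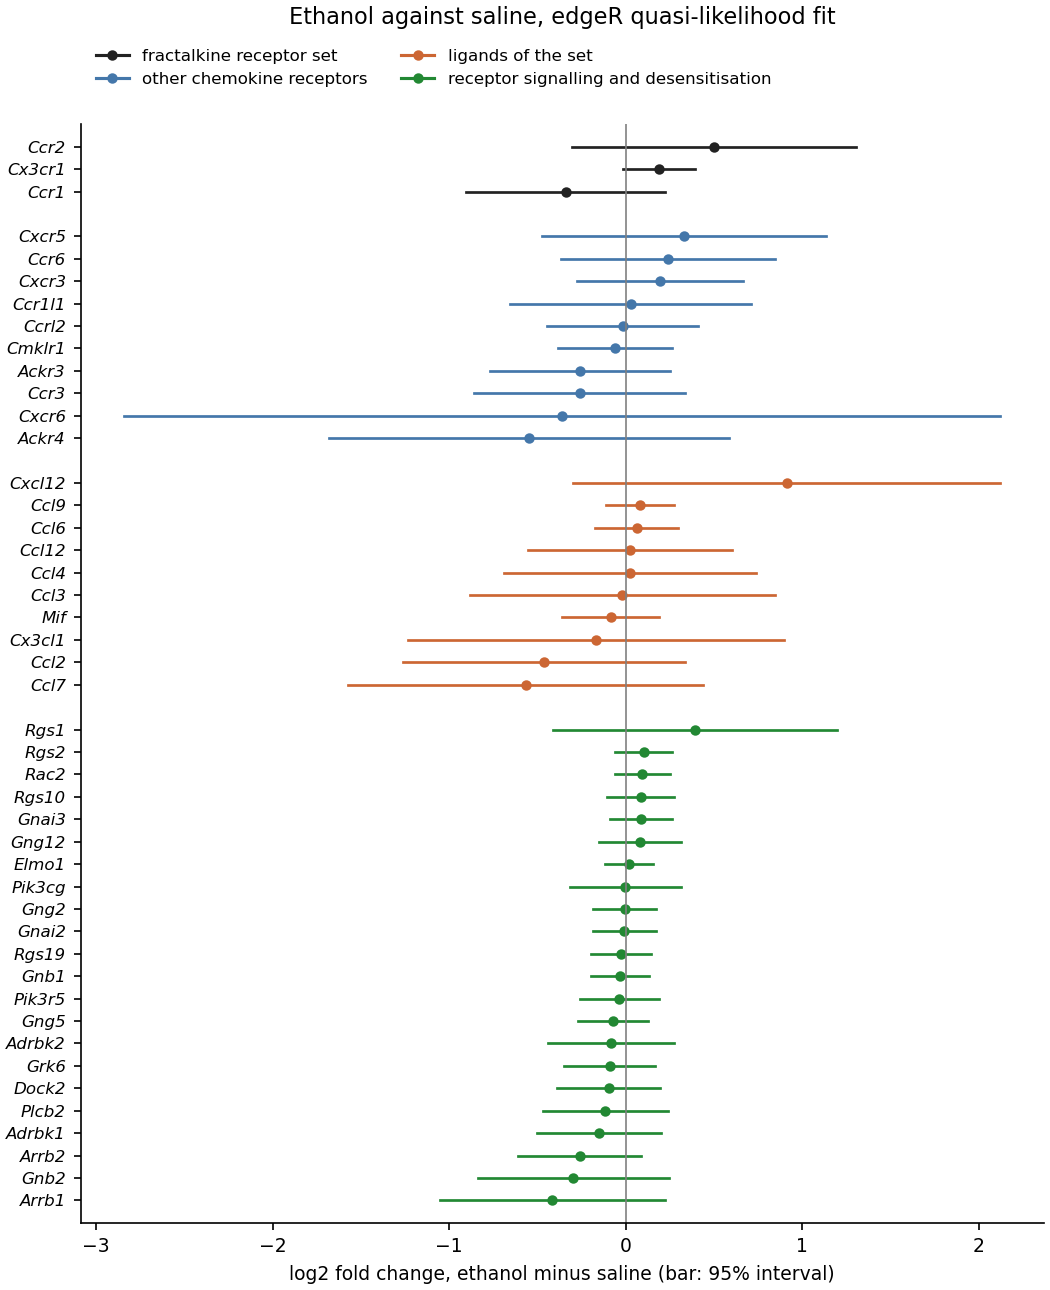
Log2 fold change of ethanol against saline for 45 tested genes of the 4 lists, with 95% intervals from edgeR's quasi-likelihood fit (right: higher in ethanol mice). Every interval drawn includes 0, and that of Cx3cr1 runs from -0.02 to 0.39.

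Age also differed between the mice, with 4 older mice (35 or 36 days) and 5 younger mice (29 or 30 days). Age followed the column name suffix except in saline 4, a younger mouse with the suffix of older ones, so apart from that mouse the suffix and age cannot be told apart. With treatment as a covariate none of the 3 tested receptors passed, and 0% of all genes were called at an adjusted p under 0.05 (2.85% at an unadjusted p under 0.05). Ccr1 had the smallest p, with a log2 fold change of older against younger mice of -0.47 ± 0.22 (SE), a 95% interval from -0.97 to 0.02 and an adjusted p of 0.973 in edgeR's test. In the older mice Ccr1 was at 99.9 and 67.9 CPM with saline and 59.1 and 62.2 CPM with ethanol. In the younger mice it was at 112, 136 and 72.3 CPM with saline and 118 and 69.1 CPM with ethanol, so the ages overlapped. The Ccr1 value was -0.29 without ethanol 3 and -0.66 without saline 1 and ethanol 2 together. With the suffix as a covariate and saline 1 left out it was -1.07, a value that rests on saline 4. For Cx3cr1 the log2 value was 0.13 (-0.07 to 0.33), which was -0.02 without saline 1 and ethanol 2 together, and for Ccr2 it was -0.33 (-1.17 to 0.51), which was 0.15 without ethanol 3.

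Among the other lists 0 genes were called for age. Of the other receptors 7 were above 0 and 4 below 0, of the ligands 8 and 2, and of the signalling genes 8 and 14, against 45.2% above 0 and 54.8% below 0 over all genes. Rgs1, which shortens G protein signals, was the only list gene with an unadjusted p under 0.05. It was at 23.5, 61.5, 74.9 and 57.0 CPM in the older saline 1, saline 3, ethanol 1 and ethanol 2, and at 23.5 to 45.9 CPM in the younger mice, so the ages overlapped. Adrbk2, the receptor kinase Grk3, was the only list gene whose ages did not overlap, with every older library at 46.2 CPM or less and every younger one at 47.1 CPM or more. Over all genes 1.24% had ages that did not overlap, and 0.597% in this direction. Both genes were singled out after their values were seen.

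Within the age cohorts Cx3cr1 had the higher mean in ethanol mice in both. In the younger cohort it averaged 7002 CPM with saline (n = 3) and 7587 CPM with ethanol (n = 2), and in the older cohort 7370 CPM (n = 2) and 8722 CPM (n = 2). Among the older mice ethanol 2 was at 9855 CPM, while ethanol 1 (7589 CPM) was below saline 1 (7869 CPM). The log2 fold change was 0.11 in the younger and 0.24 in the older mice. For Ccr1 these values were -0.19 and -0.47, and for Ccr2 0.98 and -0.19. In edgeR's test, the ethanol by cohort interaction did not pass for any of the 3 (adjusted p = 0.972 each), and 0% of all genes were called (3.24% at an unadjusted p under 0.05). It was 0.13 ± 0.19 (SE) on the log2 scale for Cx3cr1, -0.28 ± 0.45 for Ccr1 and -1.17 ± 0.68 for Ccr2. The Ccr2 value was -0.13 without ethanol 3, and the Cx3cr1 value was -0.075 without ethanol 2. Of the other receptors 6 were above 0 and 5 below 0, of the ligands 6 and 4, and of the signalling genes 8 and 14, where 48.8% of all genes were above 0 and 51.2% below 0.

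**Figure D5:**
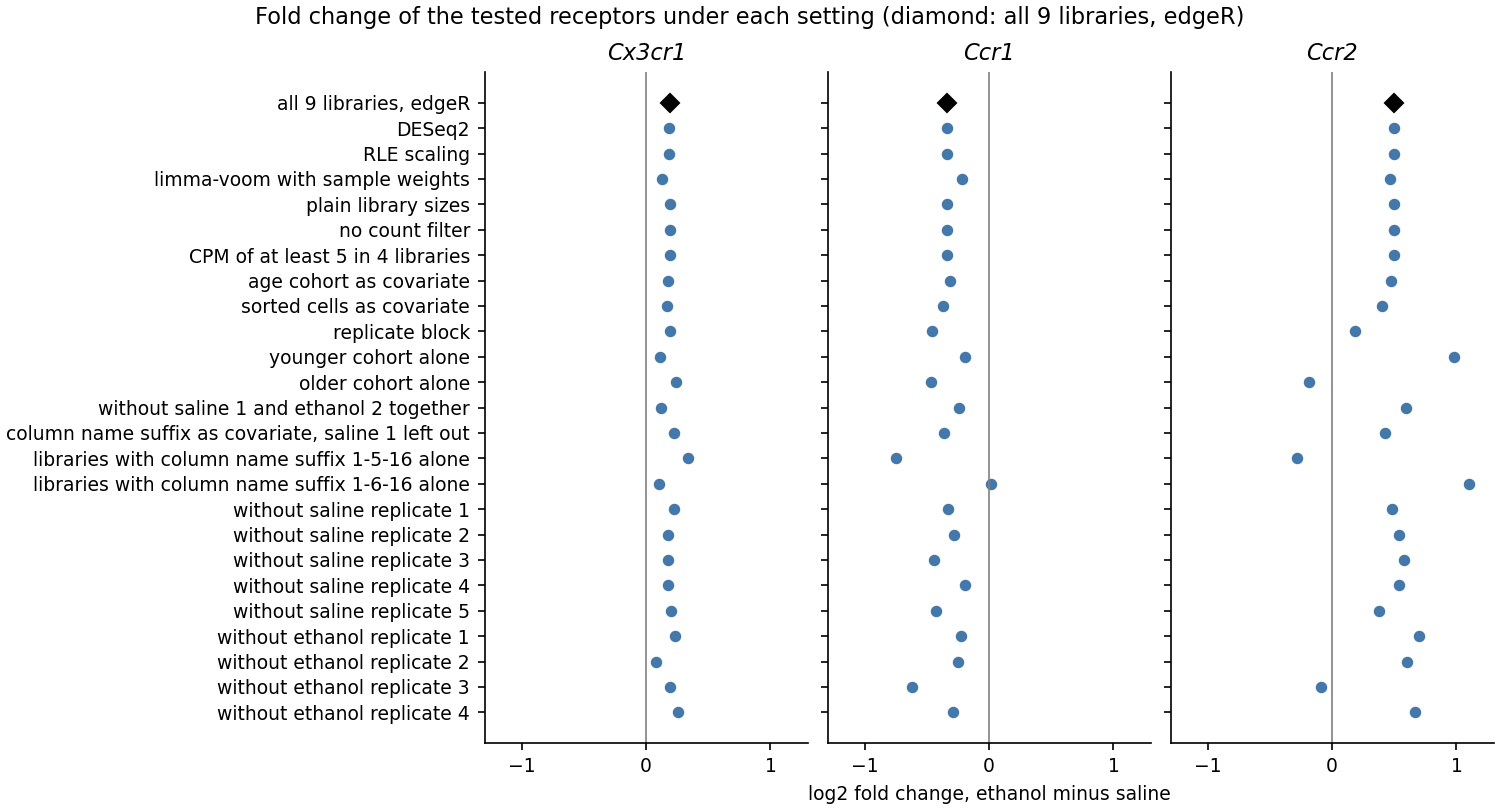
Log2 fold change of ethanol against saline for Cx3cr1, Ccr1 and Ccr2 under each alternative analysis, with the reported value as a diamond. Cx3cr1 stays above 0 in every row and Ccr1 below 0 in every row but 1, at 0.02 among the libraries with the suffix of ethanol 3 and 4, while Ccr2 is at -0.09 without ethanol replicate 3, at -0.19 in the older cohort alone and at -0.28 with the suffix of ethanol 1 and 2.

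Genes with the most similar pattern over the 9 libraries differed between the receptors. Likeness was measured as Pearson's correlation of log2 CPM among 8249 genes (8250 for Ccr2) with a mean of at least 10 CPM, over libraries that share their depth and cell composition with the receptor itself. The genes named for each receptor were picked among the closest of all genes searched, over only 9 libraries. High correlations are therefore bound to appear, and whether these genes vary with the receptors in other mice was not tested. For Cx3cr1 close genes were Bst2, an interferon-inducible antiviral gene (0.977) and the GTPase gene Rac2 (0.974). Both were highest in ethanol 2, with Bst2 at 68.6 CPM there and 46.6 to 54.1 CPM elsewhere, and the correlations were 0.903 and 0.885 without saline 1 and ethanol 2, where these genes ranked 55 and 84 in likeness. For Ccr1 they were the mitochondrial phosphatase gene Ptpmt1 (0.938, and 0.971 without those libraries), the vesicle tethering gene Vps52 (0.914) and the ribosomal protein gene Rpl36a (0.906), whose reads may be shared with copies elsewhere in the genome. For Ccr2 they were the immune receptor gene Lilra5 (0.943), Tmem52 (0.931) and the nucleolar gene Nop2 (0.888). Lilra5 was at 48.9 CPM in ethanol 3 and at most 33.4 CPM elsewhere, and Tmem52 at 40.4 CPM and at most 30.9 CPM. Ccr2 was high in ethanol 3 alone, so genes picked for likeness to it are bound to be high there. Between the receptors themselves the correlation was -0.28 for Cx3cr1 with Ccr1, 0.22 for Cx3cr1 with Ccr2 and 0.50 for Ccr1 with Ccr2, over 9 libraries. Without saline 1 and ethanol 2 these were -0.0088, 0.50 and 0.57 over 7 libraries.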

How the data were processed

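The authors deposited a raw count for each gene symbol in 9 libraries, 1 per mouse. Trimmomatic 0.32, STAR 2.4.2a, HTSeq 0.6.1 and the build GRCm38.p4 appear, without roles, in the submitters' processing notes. Strand and annotation were not given in the sources used here. All 9 columns were mapped by name. The filterByExpr rule (at least 10 counts in enough libraries, 15 in total) left 13067 genes, scaled by TMM, which gave the CPM. Groups were compared with edgeR 4.0.16 (quasi-likelihood test, R 4.3.3), with Benjamini-Hochberg adjustment over all genes left. On simulated data the procedure called 23.9% of genes changed 1.5-fold, 71.6% at 2-fold and 92.4% at 4-fold, with 6 false calls. Most changes of 1.5-fold were thus missed in the simulation. Its counts were drawn independently around the mean of each gene, with no outlying library such as ethanol 2. The changed genes were picked at random, while the 3 tested receptors had a spread above the median of genes of like level. The rates therefore cannot be taken as those of the receptors. DESeq2 1.42.0 and limma 3.58.1 were alternatives, and scipy 1.17.1 ran the permutation tests. Totals of 12816198 to 28859244 counts set the precision. Exon lengths came from GENCODE M21, which holds 41852 of the 45664 symbols as 1 gene. Libraries of a group differed beyond sampling noise (chi-square per degree of freedom at least 8.30), so none was counted as a repeat. Each library is 1 mouse, so the spread includes that of sorting and library preparation.

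The receptors and lists were chosen with earlier results of these data known. Besides the 5 receptors, the rule named the most abundant gene and the one with the smallest p of each list, and the 3 closest patterns for each tested receptor. A few genes covered by this rule or by the lists are left unreported here.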

Additional observations from a re-analysis of the deposited data

Results flagged for a closer look

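Among the 4 ethanol libraries, 3 receptor values stood far from the rest of their group. Ccr2 was at 15.8 CPM and Ccr1 at 118 CPM in ethanol 3, and Cxcr4 was at 0.556 CPM in ethanol 1, the last from 7 reads. Each lay past Dixon's critical value for the gap to the nearest library over the range of the group, and Ccr1 only just. In all 20 groups of libraries were looked at, and chance gives about 1 such value in 20.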

How the results depend on the processing

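For ethanol against saline 0 genes were called under each of 24 alternatives (204 to 862 genes at an unadjusted p under 0.05, DESeq2 435 and limma-voom 512). Leaving out each mouse in turn moved Cx3cr1 between 0.082 and 0.25, Ccr1 between -0.62 and -0.19, Ccr2 between -0.091 and 0.70 and Gnai2 between -0.052 and 0.038. A fit blocked on replicate number, without saline 5, which has no partner, gave 0.19 for Cx3cr1, -0.46 for Ccr1 and 0.18 for Ccr2 and called 0 genes. Same-numbered mice deviated from their group means with correlations of -0.17 to 0.01, so the numbers were not taken as pairs. Ccr2 was -0.19 in the older cohort alone. In the younger cohort alone Ackr3 was 0.062 and Gnai2 0.032. Without saline 1 and ethanol 2 together Gnai2 was 0.065, and it was 0.046 with limma-voom. With the column name suffix as a covariate and saline 1 left out, Cx3cr1 was 0.22, Ccr1 -0.36, Ccr2 0.43 and Gnai2 0.038. Among the libraries with the suffix of ethanol 1 and 2, where treatment and age are mixed, Ccr2 was -0.28 and Gnai2 0.0080. Among those with the suffix of ethanol 3 and 4 Ccr1 was 0.017 and Gnai2 0.065.

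For age, 3 genes (Adrb1, Nfkbia and Tagap) were called without saline 1 and ethanol 2, where Cx3cr1 was -0.017. Ccr2 ranged from -0.54 to 0.15 without single mice. For the interaction DESeq2 called 1 gene, C130089K02Rik. Without single mice 0 to 848 genes were called, the 848 without ethanol 1, which leaves ethanol 2 as the only older ethanol mouse, assumed to vary like the other groups. None of the 3 tested receptors was among these calls. The interaction ranged from -0.075 to 0.34 for Cx3cr1, -0.61 to 0.16 for Ccr1 and -1.77 to -0.13 for Ccr2. The cause of these shifts was not tested. The list counts without saline 1, without ethanol 2 and without both, the fits by column name suffix and the spreads without single libraries were added after seeing the data. Reads of Cxcr4 and Cxcr2 limit their precision. Without the count filter their log2 fold changes were 0.05 and -0.64.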
